A study of Mus musculus with 2 samples.

Results

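Cyclins, cyclin-dependent kinases (Cdks), the Cdc25 phosphatases and the kinase Wee1 form the enzyme system that moves cells through the division cycle. Genes were taken from the authors' deposited table by symbol alone. The rule, the grouping by role and the lists of other genes were chosen with earlier results of these data known. The rule took the cyclins of families A, B, D, E and T, cyclin H, every Cdk whose name is Cdk and a number, the 3 Cdc25 genes and Wee1, which gave 35 of 23365 genes. Of these, 18 were grouped as acting in the division cycle itself and 17 as acting in Cdk activation, in transcription or in other processes. The 17 include Cdk7 and Ccnh, which activate other Cdks, as well as kinases of transcription, so the grouping is a rough one.

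RNA sequencing was done on mouse embryonic fibroblasts, connective tissue cells grown in culture from embryos. The study has 2 libraries, a wild-type library and a library from cells with TET1 and TET2 knocked out, the dioxygenases that begin the removal of methyl marks from DNA. Strain, embryonic age, passage and the kind of allele are not stated in the labels. The columns of the authors' deposited table name a condition A and a condition B, and neither name matches a sample, so no value is assigned to a genotype and every ratio is B over A. The study's design text lists wild type first and the knock-out after it, without tying either to A or B, so whether A is the wild type is not settled here.

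A Cdk is inactive without its cyclin, and cyclins come and go through the cycle. D cyclins with Cdk4 or Cdk6 act in G1, E cyclins with Cdk2 at entry into S phase, cyclin A through S and G2, and B cyclins with Cdk1 in mitosis. Wee1 holds Cdk1 and Cdk2 inactive by phosphorylation, Cdc25 phosphatases remove that phosphate, and the kinase formed by Cdk7 and cyclin H activates the Cdks. T cyclins with Cdk9, and Cdk8, Cdk12, Cdk13 and Cdk19, act on RNA polymerase II or the Mediator complex. In cultured fibroblasts, transcripts of cyclin A, the B cyclins and Cdk1 are plentiful in dividing cells and scarce in resting ones.

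A level and a ratio are given for each gene. The mean normalized count is the authors' mean over both conditions of counts divided by size factors, and the log2 ratio is the base-2 logarithm of their fold. With 1 library per genotype there is no replicate check and no error for a ratio, and the p-values of the authors' deposited table set 1 library against another and say nothing of the spread between cultures. Genes whose mean normalized count reached 50, termed measured below, were counted by a 2-fold rule, which a gene meets when its log2 ratio is 1 or more, or -1 or less. Genes whose adjusted p there lies under 0.1 are said to pass the 0.1 cut-off, which was set for this work. In RNA of a whole culture, fewer dividing cells and less RNA of these genes per cell cannot be told apart.

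Measured members numbered 32 of 35, and 8 of the 32 were lower in condition B by the 2-fold rule while 1 was higher. Over all 12401 measured genes, 9.6% were lower and 8.31% were higher by that rule. The median log2 ratio of the 32 members was -0.26 per the authors' deposited table, against -0.04 over all measured genes. Members of the division cycle and the remaining members were unlike in their counts. Of 16 measured cell cycle members 7 were lower and 0 higher, with a median of -0.85, and of the other 16 measured members 1 was lower and 1 higher, with a median of -0.07. The 0.1 cut-off was passed by 1 of the 32 members, Ccna2, which was lower in condition B, against 3.2% of all measured genes. With a cut-off of 0.05 on the adjusted p of the authors' deposited table, 0 of the 32 members passed, against 2.43% of all measured genes. A raw p under 0.05 in that table was held by 6 of the 32 members and by 8.72% of all measured genes. The difference between the 2 sets of members has no test, since there is 1 library per genotype. The sets were also drawn with earlier results of these data known.

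**Figure D1:**
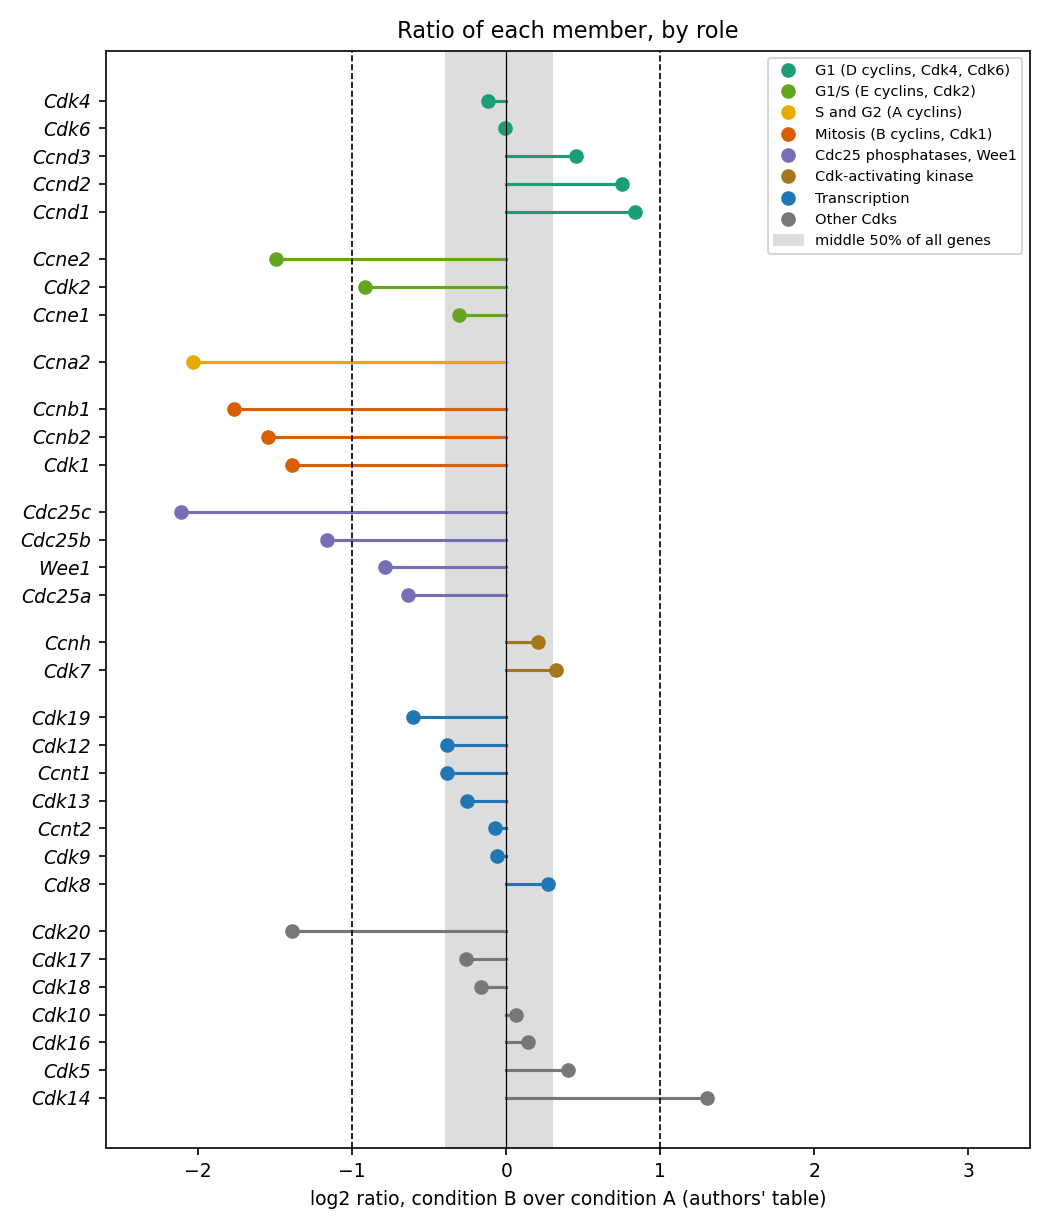
Log2 ratio of condition B over condition A (x axis) for the 32 measured members, grouped by role and coloured by group. The grey band holds the middle 50% of all measured genes (-0.39 to 0.30) and the dashed lines mark a 2-fold difference, which Cdc25c, Ccna2, Ccnb1, Ccnb2, Ccne2, Cdk1, Cdk20 and Cdc25b pass toward condition A and Cdk14 passes toward condition B.

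The cyclins and the kinase of S phase, G2 and mitosis were all lower in condition B where they were measured. Ccna2, the A cyclin of somatic cells, had a mean normalized count of 3923 and was 4.09-fold lower in B per the authors' deposited table (adjusted p = 0.0923). Ccnb1, the B cyclin required for mitosis, had a mean normalized count of 4473 and was 3.41-fold lower there (adjusted p = 0.207 per the authors' deposited table). Its relative Ccnb2 had a mean of 2098 and was 2.92-fold lower per the authors' deposited table (adjusted p = 0.466). On the log2 scale these 3 cyclins ran from -2.03 (Ccna2) to -1.55 (Ccnb2).

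Cdk1, the catalytic partner of the A and B cyclins, had a mean normalized count of 4670 and was 2.63-fold lower in B per the authors' deposited table (adjusted p = 0.571). The kinase therefore had the ratio nearest to 0 of these 4 genes, at a log2 ratio of -1.39. Of all measured genes, 5.98% had a log2 ratio as low as that of Cdk1 or lower, and 2.81% had one as low as that of Ccna2. Per kilobase of the longest annotated transcript, the mean levels of Ccnb1, Ccnb2, Ccna2 and Cdk1 from the authors' deposited table were 1797, 1370, 1323 and 1067 normalized counts.

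The germ-line members of these families were at or near 0. Ccna1, the A cyclin of male meiosis, had a mean normalized count of 2.42 per the authors' deposited table, below the minimum, so its ratio is not read. Ccnb3, a B cyclin of meiosis, is listed at 0 in both conditions of the authors' deposited table.

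Promoters are shown for the 4 members with the largest means among those that met the 2-fold rule and have an entry in the RefSeq promoter table, since 3 of them were lower together and 1 was higher. Each stretch holds the 220 bases before the annotated start and the first 10 bases of the gene, 5′ to 3′ on the gene's own strand, from RefSeq on build GRCm38.p6, which is not the authors' build. Capitals mark 3 motifs searched on both strands. The first is CCAAT, which reads ATTGG on the other strand, the next is the cell cycle homology region (CHR), TTTGAA or TTTAAA, and the last is the E2F site, TTTCGCGC or TTTGGCGC. No match overlaps another in the stretches shown. Cdk1 lies at chr10:69352903-69353132, Ccnb1 at chr13:100786477-100786706, Ccnb2 at chr9:70421545-70421774 and Cdk14 at chr5:5380242-5380471, all on the minus strand.
Cdk1: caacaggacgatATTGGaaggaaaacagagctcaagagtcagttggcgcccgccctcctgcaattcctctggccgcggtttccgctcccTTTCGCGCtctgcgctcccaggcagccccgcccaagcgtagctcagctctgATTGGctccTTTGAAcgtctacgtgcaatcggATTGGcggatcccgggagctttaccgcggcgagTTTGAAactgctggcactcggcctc
Ccnb1: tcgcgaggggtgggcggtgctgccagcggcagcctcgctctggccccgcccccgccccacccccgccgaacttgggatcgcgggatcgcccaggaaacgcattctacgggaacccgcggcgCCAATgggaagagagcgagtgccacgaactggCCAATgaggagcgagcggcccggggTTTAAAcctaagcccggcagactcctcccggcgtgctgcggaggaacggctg
Ccnb2: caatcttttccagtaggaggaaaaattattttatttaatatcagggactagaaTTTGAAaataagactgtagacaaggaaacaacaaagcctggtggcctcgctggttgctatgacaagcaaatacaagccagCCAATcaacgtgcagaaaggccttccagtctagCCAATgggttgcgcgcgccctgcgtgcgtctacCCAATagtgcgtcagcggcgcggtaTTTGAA
Cdk14: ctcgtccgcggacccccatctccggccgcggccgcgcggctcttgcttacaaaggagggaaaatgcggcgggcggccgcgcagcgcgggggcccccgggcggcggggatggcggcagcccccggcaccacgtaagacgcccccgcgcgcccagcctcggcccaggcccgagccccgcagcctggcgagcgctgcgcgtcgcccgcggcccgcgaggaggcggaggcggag

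Cdk1, Ccnb1 and Ccnb2, the 3 lower in condition B, each held CCAAT more than once and a CHR match, and Cdk14, the gene higher in condition B, held no match to any of these letters in its window. The other lower members with a window did not share that arrangement. Cdc25b held CCAAT 1 time, at -28 on the other strand, with no CHR or E2F match, and Cdk20 held no match. Cdk16, which did not meet the 2-fold rule, did share it, with CCAAT more than once and a CHR match. Its log2 ratio was 0.14 per the authors' deposited table. Lower members without a window, Ccna2 and Ccne2 among them, could not be searched, so the arrangement is not known for all the lower members. How many of all windows hold both CCAAT more than once and a CHR match was not counted. Counting the first base of the gene as 1 and the base before it as -1, CCAAT in Ccnb2 began at bases -87, -54 and -21, a spacing of 33 bases each time. In Ccnb1 it began at -99 and -67, 32 bases apart, with TTTAAA at -42. In Cdk1 it began at -208, -80 and -48 on the other strand, the last pair 32 bases apart, with TTTGAA at -71 and -15 and TTTCGCGC at -131. TTTGAA in Ccnb2 began at -167 and at base 5 of the gene. The printed stretches held 60.4%, 70.4% and 46.5% G and C for Cdk1, Ccnb1 and Ccnb2, and 80.9% for Cdk14.

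Matches to these short letters were common among promoters. Of 32851 RefSeq windows of 300 bases (250 before a start and the first 50 of the gene), 37.4% held CCAAT, 11.7% held it at least 2 times, 27.6% held a CHR match and 0.813% an E2F match. Windows were found for 25 of the 35 members. Among 12 cell cycle members with a window, 8 held CCAAT, 4 held it at least 2 times, 5 held a CHR match and 2 an E2F match. Among the 13 other members with a window, the counts were 5, 3, 3 and 0. Members were counted as genes, while the shares above are of windows. Ccna1, among the 8 with CCAAT, and Ccnb3, among the 5 with a CHR match, were not measured. Cdc25a held CCAAT at least 2 times and Ccne1 held a CHR match, and neither met the 2-fold rule. Ccnt2, Cdk10 and Cdk16 held CCAAT at least 2 times with log2 ratios of -0.07, 0.06 and 0.14 per the authors' deposited table. Matches are a description of letters and do not show binding.

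The Cdc25 phosphatases and Wee1, which act on the same inhibitory phosphate in opposite directions, were all below 0 on the log2 scale. Of all measured genes, 52.8% lay below 0, and 9.6% were lower by the 2-fold rule, which 2 of these 4 met. Cdc25c, which acts at entry into mitosis, had a mean normalized count of 556 and was 4.33-fold lower in B per the authors' deposited table (adjusted p = 0.296). This was the lowest ratio of the 32 measured members, and 2.51% of all measured genes had one as low or lower. Cdc25b, which acts in G2, had a mean of 1619 and was 2.24-fold lower per the authors' deposited table (adjusted p = 1). Cdc25a, which acts from G1 onward, had a mean of 2180 and a log2 ratio of -0.64 per the authors' deposited table, short of the 2-fold rule. Wee1 had a mean of 1617 and a log2 ratio of -0.79 per the authors' deposited table, also short of the 2-fold rule, and both had an adjusted p of 1. Per kilobase, mean levels from the authors' deposited table were 600 for Cdc25a, 524 for Cdc25b, 473 for Wee1 and 286 normalized counts for Cdc25c.

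At the G1 to S boundary the E cyclins were unlike each other. Ccne2 had a mean normalized count of 382 and was 2.81-fold lower in B per the authors' deposited table (adjusted p = 1). Ccne1 had a mean of 2800 and a log2 ratio of -0.31 per the authors' deposited table, within the middle 50% of all measured genes. Per kilobase, Ccne1 stood at 1400 and Ccne2 at 127 normalized counts from the authors' deposited table, so the E cyclin with the lower ratio was also the one at the lower level. Cdk2, the kinase of both, had a mean of 1897 and a log2 ratio of -0.91 per the authors' deposited table, just short of the 2-fold rule, and 10.8% of all measured genes lay as low or lower.

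D cyclins, the cyclins that respond to growth factors, lay on the other side of 0. Ccnd1 had a mean normalized count of 39441 and was 1.79-fold higher in B per the authors' deposited table, and Ccnd2 had a mean of 73724 and was 1.69-fold higher. Ccnd3 had a mean of 7240 and a log2 ratio of 0.45 per the authors' deposited table. None of the 3 met the 2-fold rule, all had an adjusted p of 1, and 9.88% and 10.9% of all measured genes had a ratio as high as those of Ccnd1 and Ccnd2 or higher. Their kinases were close to 0, with log2 ratios of -0.12 for Cdk4 and -0.01 for Cdk6 per the authors' deposited table, and that of Cdk6 turns positive when ratios are centred on the median of all measured genes.

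Levels of the G1 members were far apart. Per kilobase of transcript, Ccnd2 stood at 11647, Ccnd1 at 10546, Cdk4 at 8857 and Ccnd3 at 3426 normalized counts from the authors' deposited table, and Cdk9, at 3447, was the measured member with a level between those of Cdk4 and Ccnd3. Cdk6 stood at 59.2 per kilobase, the lowest of the measured members, on a longest transcript of 11525 bases. The D cyclins and Cdk4 therefore lay above the S phase and mitotic members in level while differing from them in the sign or size of the ratio. The plot of mean against ratio shows the same arrangement.

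**Figure D2:**
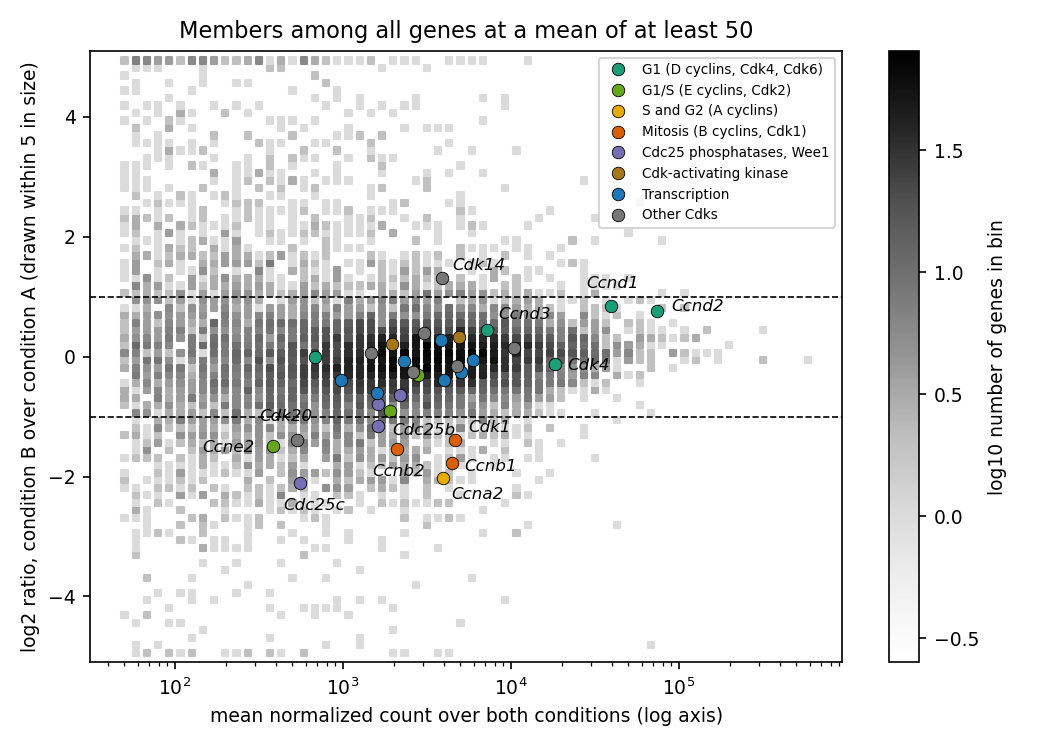
Mean normalized count over both conditions (x axis, log scale) against the log2 ratio of condition B over condition A (y axis) for the 32 measured members, coloured by role, over grey squares that give the number of measured genes in each bin. Ratios beyond 5 in size are drawn at 5, infinite ratios are left out, and dashed lines mark a 2-fold difference. The D cyclins lie above 0, with Ccnd1 and Ccnd2 farthest to the right of the members. Ccna2, Ccnb1, Ccnb2 and Cdk1 lie below the lower line at means of 2098 to 4670.

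Cdk7 and Ccnh, the pair that activates the other Cdks and is also part of the transcription factor TFIIH, were close to 0. Cdk7 had a mean normalized count of 4906 and a log2 ratio of 0.33 per the authors' deposited table, and Ccnh had a mean of 1954 and a ratio of 0.21. Mnat1, the third subunit of that complex, had a log2 ratio of -0.13 per the authors' deposited table. All 3 had an adjusted p of 1.

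Of the 7 members that act in transcription, 0 met the 2-fold rule in either direction, against 9.6% lower and 8.31% higher over all measured genes. Cdk9, the kinase that releases paused RNA polymerase II, had a mean normalized count of 5974 and a log2 ratio of -0.06 per the authors' deposited table. Its partners Ccnt1 and Ccnt2 had log2 ratios of -0.38 and -0.07 per the authors' deposited table. Cdk12 and Cdk13, which phosphorylate the tail of the polymerase with cyclin K, had log2 ratios of -0.38 and -0.25 per the authors' deposited table. The Mediator kinases were on opposite sides of 0, Cdk8 at 0.27 and its paralog Cdk19 at -0.60 on the log2 scale per the authors' deposited table. Per kilobase, Cdk8 stood at 1283 and Cdk19 at 274 normalized counts from the authors' deposited table. All 7 had an adjusted p of 1.

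Among the remaining Cdks, 1 of 7 measured genes was lower and 1 higher by the 2-fold rule, against 9.6% and 8.31% of all measured genes. Cdk14, a kinase that pairs with cyclin Y and acts at the membrane in Wnt signalling, had a mean normalized count of 3872 and was 2.47-fold higher in B per the authors' deposited table (adjusted p = 0.723). It was the highest ratio of the 32 measured members, and 6.18% of all measured genes had one as high or higher. Ccny, the gene of its cyclin, had a log2 ratio of -0.19 per the authors' deposited table. Cdk20, a kinase linked to the primary cilium, had a mean of 531 and was 2.63-fold lower per the authors' deposited table (adjusted p = 1). Per kilobase its mean level was 129 normalized counts, against 753 for Cdk14.

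Cdk5, known for its work in neurons, had a log2 ratio of 0.40 per the authors' deposited table, and its activator Cdk5r1 had one of -0.77 at a mean normalized count of 194. Cdk16, Cdk17 and Cdk18, close relatives of each other, had log2 ratios of 0.14, -0.26 and -0.16 per the authors' deposited table. Cdk16 had the largest mean of the 3, at 10452. Cdk10 had a log2 ratio of 0.06 per the authors' deposited table. Cdk15 had a mean of 21.6 per the authors' deposited table, below the minimum, so its ratio is not read.

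Lists of other pathway genes, the kinases, destruction factors, regulators and inhibitors around these members, were counted by the same rule. Each count below stands beside 9.6% lower and 8.31% higher over all measured genes. Of 14 mitotic and checkpoint kinases and related genes, 9 were lower in condition B by the 2-fold rule and 0 higher. Their median log2 ratio was -1.40 per the authors' deposited table, and 1, Plk1, passed the 0.1 cut-off. Plk1, a kinase that activates Cdc25c, was 4.23-fold lower per the authors' deposited table (adjusted p = 0.0840), and Bub1, Nek2 and Aurkb had log2 ratios of -2.07, -2.05 and -2.05. Arpp19 and Ensa, substrates through which the kinase Mastl protects Cdk1 targets, had log2 ratios of 0.04 and 0.37 per the authors' deposited table, while Mastl had one of -1.36.

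Cyclin destruction genes were mostly close to 0. Of 25, 4 were lower by the 2-fold rule and 0 higher, with a median log2 ratio of -0.16 per the authors' deposited table. The 4 were Fbxo5, an inhibitor of the anaphase-promoting complex, 5.92-fold lower (adjusted p = 0.0259 per the authors' deposited table), Ube2c (-1.53), Cdc20 (-1.46) and Skp2 (-1.05 on the log2 scale). The core subunits of the anaphase-promoting complex lay between -0.47 (Anapc5) and 0.42 (Anapc13) per the authors' deposited table.

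Of 24 regulators of cell cycle transcription, 7 were lower by the 2-fold rule and 0 higher. Their median log2 ratio was -0.30, and 0 passed the 0.1 cut-off per the authors' deposited table. E2f8, Mybl2, E2f7 and Foxm1 had log2 ratios of -2.08, -2.01, -1.93 and -1.90 per the authors' deposited table. Nfya, Nfyb and Nfyc, subunits of the factor that binds CCAAT, had log2 ratios of -0.10, -0.36 and -0.31 per the authors' deposited table, all short of the 2-fold rule. Lin9 and Lin54, of the complex that binds CHR letters, had ratios of -1.12 and -0.81 there, while its subunits Lin37, Lin52 and Rbbp4 were close to 0, at log2 ratios of -0.13, -0.13 and -0.18 per the authors' deposited table.

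Inhibitors of Cdks went both ways, 3 of 8 meeting the 2-fold rule toward A and 3 toward B, and their median log2 ratio was -0.31 per the authors' deposited table. Cdkn1b (-2.41) and Cdkn2a (1.99) passed the 0.1 cut-off, Cdkn2b had a log2 ratio of 1.87 and Cdkn2c one of -1.74 per the authors' deposited table. Of 18 partners and relatives of Cdks, 2 were lower and 1 higher by the 2-fold rule, against 9.6% and 8.31% of all measured genes. Their median log2 ratio was -0.092, and 0 passed the 0.1 cut-off per the authors' deposited table. Those counted were Pkmyt1 (-1.52), a relative of Wee1, Cdk5rap2 (-1.07) and Cdkl1 (1.46 on the log2 scale per the authors' deposited table). Cks1b and Cks2, small subunits that bind Cdks, had log2 ratios of -0.58 and -0.99 per the authors' deposited table.

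Cyclins of other families were also counted. Of 11 measured, 1 was lower by the 2-fold rule and 0 higher, with a median log2 ratio of -0.17 and 0 past the authors' threshold per the authors' deposited table. Ccnf, the F-box cyclin of G2, had a log2 ratio of -1.49 per the authors' deposited table. Ccng1, a target of p53, had one of 0.97, Ccnj one of -0.43 and Ccni one of -0.21.

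**Figure D3:**
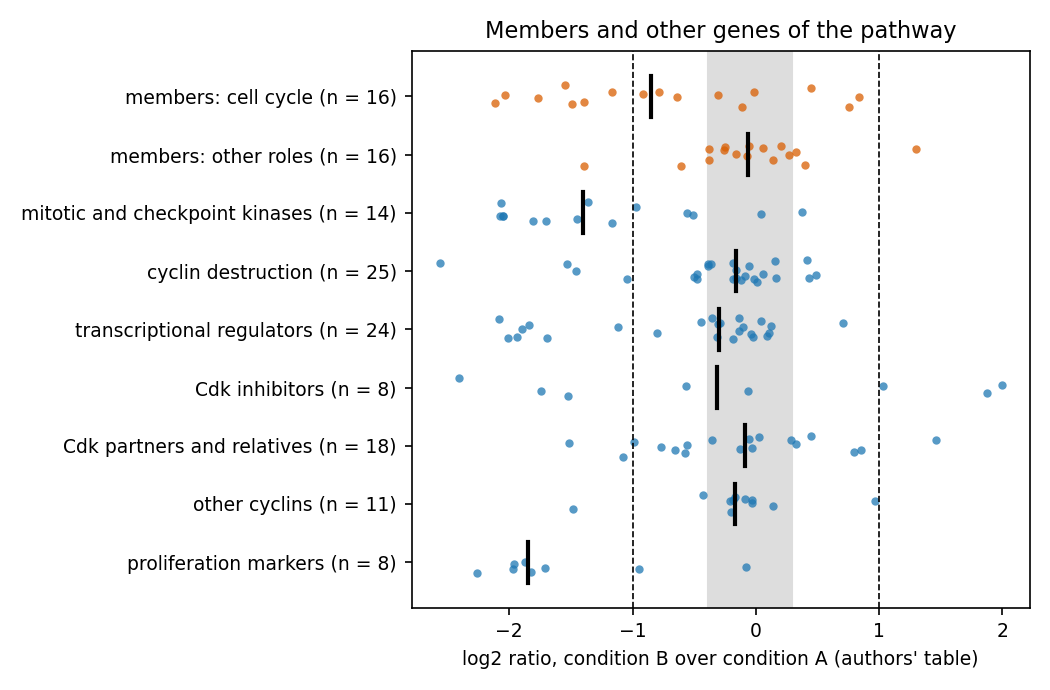
Log2 ratio of condition B over condition A (x axis) for measured members, in orange, and measured genes of the other lists, in blue, with 1 point per gene spread vertically at random and a black bar at each list's median. The grey band holds the middle 50% of all measured genes and dashed lines mark a 2-fold difference. Medians run from -0.07 for members outside the cell cycle to -1.40 for mitotic and checkpoint kinases and -1.85 for proliferation markers.

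Proliferation markers were likewise lower in B, 6 of 8 by the 2-fold rule with 0 higher, against 9.6% and 8.31% of all measured genes. Their median log2 ratio was -1.85 per the authors' deposited table. Mki67 had a log2 ratio of -2.26 there, and Rrm2, a subunit of ribonucleotide reductase, had one of -0.08. The targeted genes Tet1 and Tet2 had log2 ratios of -1.82 and -0.74, and Tet3, their relative that the labels do not list as knocked out, had one of -0.63 per the authors' deposited table (adjusted p = 0.851 for Tet1 and 1 for the others). The table has 1 value per gene, so a deleted exon cannot be seen and these ratios do not tell the conditions apart.

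Fibroblast markers were present, all 10 being measured, with 4 higher in condition B by the 2-fold rule and 0 lower. Those higher were Dcn (5.66), Lum (3.29), Thy1 (2.88) and Pdgfra (2.54 on the log2 scale) per the authors' deposited table. The other 6 lay between -0.08 (Col1a1) and 0.66 (Pdgfrb). Over all measured genes, 9.6% were lower and 8.31% higher by that rule. Of 5 epithelial, 4 endothelial, 4 blood and 4 skeletal muscle markers, 1, 2, 3 and 2 were measured, and their mean normalized counts summed to 150, 556, 312 and 1433 per the authors' deposited table, with the muscle regulators Myod1 and Myog at 0. Both measured endothelial markers were higher in condition B by the 2-fold rule, Kdr (2.78) and Tek (1.21 on the log2 scale) per the authors' deposited table. Of the blood markers Lyz2 stood at 3.84, Cd68 at 0.18 and Cd14 at -1.95, the epithelial marker Krt18 at -2.29, and the muscle markers Des at 1.13 and Acta1 at 0.01 on the log2 scale per the authors' deposited table. Cartilage markers were measured for 3 of 4 and all 3 were lower in condition B by the 2-fold rule. They were Col2a1 (-4.87), Comp (-3.11) and Acan (-3.08 on the log2 scale) per the authors' deposited table. The summed mean of the cartilage markers was 70346, nearly all of it from Col2a1 (69652), with Comp at 569 and Acan at 125. The part of the cell mixture in the ratios of the members was not tested.

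Some values are uncertain for reasons of counting. The kit does not mark strand, and 22 of the 35 members overlap another RefSeq gene on GRCm38, 11 of them a protein-coding gene. Chosen after their values were seen, Exosc9, which overlaps Ccna2, had a log2 ratio of 0.20, Ints8, which overlaps Ccne2, one of -0.22, and Tspan31, which overlaps Cdk4, one of 0.26 per the authors' deposited table. RefSeq names pseudogene copies of Ccnb1, Ccnb2 and Ccnd3, whose reads could be shared with the gene.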

How the data were processed

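RNA from frozen pellets was made into libraries with a TruSeq RNA v2 kit, per the labels' protocols, with 1 library per genotype. TopHat2 2.0, DESeq and build mm9 are named by the submitters' processing notes. Neither these nor the labels name the program that counted reads or its annotation. The deposited signal is the authors' mean of size-factor-normalized counts, the deposited ratio (fold) is condition B over condition A, the deposited log2 value is its logarithm with no pseudocount, and the deposited p-values are raw and Benjamini-Hochberg adjusted over 17339 genes. The other 6026 genes have a mean of 0. The 2 columns that give each condition's own values match no sample and were not used, so the depth of each library is unknown and no counting interval is given.

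Members and lists were chosen with earlier results of these data known. Every member is named, with up to 4 genes of each other list by size of ratio, the targeted genes, Tet3 and Mki67, and some others of the fixed lists were chosen after their values were seen. One item of the list of Cdk partners and relatives is not reported here and is in no count of that list. No significance test was run here. Levels per kilobase used the longest protein-coding transcript of each symbol in GENCODE M21 (35 of 35 members), a length that may not be that of the transcripts expressed. Alternatives were minimum means of 10, 200 and none, centring on the median or the trimmed mean (30% trimmed at each end), fold rules of 1.5-fold and of a log2 ratio of 2, and an adjusted p under 0.05. The counting rule and the centring were checked on simulated data with seeded changes and counting noise alone. Those data hold no spread between cultures, so the check cannot tell how often 2 cultures differ by 2-fold. Python 3.11.15, pandas 2.3.3 and numpy 2.4.6 were used.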

Additional observations from a re-analysis of the deposited data

How the results depend on the processing

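With 1 library per genotype no library can be left out, and the limits above hold for every value. With a minimum mean of 10 and with none, 2 members were higher in condition B, Cdk15 being added, against 10.9% and 18.2% of all genes at those minimums. The median log2 ratio of all members became -0.25 with a minimum of 10, that of the cell cycle members -0.91 with none, and that of the other members -0.057 with either. Centred on the median of all genes, a shift of -0.04, the medians of all, cell cycle and other members became -0.22, -0.81 and -0.030. Centred on the trimmed mean they became -0.22, -0.81 and -0.028. Under either centring 1 of 32 members, Cdk6, changed sign and 0 changed side of the 2-fold rule. With a 1.5-fold rule, 12 of 32 members were lower, 10 of the cell cycle and 2 outside it, against 17.4% of all measured genes, and 3 were higher, against 13.9%. With a log2 ratio of 2 as the rule, 2 members were lower, both of the cell cycle (Ccna2 and Cdc25c), against 2.95% of all measured genes. By that rule 0 members were higher, against 3.84% of all measured genes, and 0 of the members outside the cell cycle were lower. With the cut-off on the adjusted p at 0.05 in place of 0.1, 0 members passed, against 2.43% of all measured genes. The other alternatives kept the counts within 1.5 times and the medians equal to 2 decimals.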
